A study of Mus musculus with 28 samples.

Results

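The genes described here encode the synaptic vesicle and release machinery, the proteins that dock, prime and fuse transmitter-filled vesicles at the presynaptic membrane. They were chosen by name, with earlier results of these data known. The names taken were the Syt, Stx, Stxbp, Vamp, Sv2, Cplx, Syngr and Rab3 families, Snap23, Snap25, Snap29, Snap47 and Snap91, the synapsins Syn1, Syn2 and Syn3, and the single genes Syp, Rims1, Unc13a, Bsn, Pclo and Nsf. This rule matched 76 mouse symbols, of which 71 had a probe on the array and were tested among 22225 genes and unnamed probes. The other genes had no probe annotated here, so their expression was not analysed.

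The cerebellum of Ts1Cje mice was compared with that of euploid mice at the day of birth and 3, 7 and 10 days later (P0, P3, P7 and P10). Ts1Cje mice carry an extra copy of the segment of chromosome 16 that starts at Sod1, and they are also missing 1 copy of a short stretch of chromosome 12. The labels give 1 strain, B6EiC3SnF1/J A/a, for both genotypes, and the methods describe Ts1Cje fathers bred with wild-type mothers on a mixed background. Each of the 28 two-colour arrays set the RNA of 1 Ts1Cje cerebellum against that of 1 euploid cerebellum, which makes 56 mice: 6, 8, 8 and 6 of each genotype at P0, P3, P7 and P10.

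The mice of 16 arrays, 4 for each stage, were of equal age. The other 12 arrays joined mice of neighbouring ages, with 4 arrays for each of the steps P0 to P3, P3 to P7 and P7 to P10. An array's name gives the age of its Ts1Cje mouse before the slash and the age of its euploid mouse after it, so P10/P7 replicate 2 is the second array of a P10 Ts1Cje mouse against a P7 euploid mouse. All values are log2 ratios. They are signed older minus younger on cross-stage arrays and Ts1Cje minus euploid on same-stage arrays. A ratio carries no absolute level, so levels of different genes were not compared. In whole cerebellum, fewer cells of a type and less RNA per cell cannot be told apart.

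Arrays held between 10794 and 21958 gene values. Sod1, which is present in 3 copies in Ts1Cje mice, had a ratio above 0 for Ts1Cje minus euploid on 26 of 28 arrays and was 1.72-fold higher in the fit. Markers of the labelled tissue were measured, among them the Purkinje cell genes Pcp2 and Calb1 on 25 and 27 arrays and the granule neuron genes Gabra6 and Cbln1 on 26 arrays each. P10/P7 replicate 2 and P10/P10 replicate 4 stood apart. They had the fewest values (10794 and 15773) and the widest spread of ratios (SD 1.75 and 1.41). Correlations across genes used the ratios as deposited, Cy5 dye over Cy3 dye, not signed by age or genotype. The highest correlation of these 2 arrays with any other array was r = 0.02 and 0.01, against a highest r between 0.11 and 0.26 for each of the other 26. One P7/P7 array, replicate 4, carries conflicting stage labels. Values of several genes are also given without 1 of these arrays.

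Synaptic vesicles fuse when a vesicle SNARE protein of the Vamp family zips together with the plasma membrane SNAREs syntaxin and Snap25. Synaptotagmins sense the calcium that triggers fusion, complexins and Munc18 proteins (Stxbp) control the assembly of the complex, Rims1, Bsn and Pclo build the active zone around it, and Nsf takes the used complexes apart. The families also hold members that serve fusion at the Golgi, endosomes and lysosomes in every cell. In the cerebellum these postnatal days cover the birth and settling of granule neurons and the first growth of parallel fibre synapses.

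Promoters are shown for Snap29, which passed the test at P0 to P3, for Stx1a, which was higher in the older mouse on every array of the P3 to P7 and P7 to P10 steps, and for Syn1, the synapsin whose window holds both kinds of motif found below. The sequences are from RefSeq on GRCm38.p6 and run 5′ to 3′ on the gene's strand, from 250 bases before the annotated start to 50 after it, with motif matches in capitals.
Snap29 promoter, chr16:17405750-17406049, plus strand: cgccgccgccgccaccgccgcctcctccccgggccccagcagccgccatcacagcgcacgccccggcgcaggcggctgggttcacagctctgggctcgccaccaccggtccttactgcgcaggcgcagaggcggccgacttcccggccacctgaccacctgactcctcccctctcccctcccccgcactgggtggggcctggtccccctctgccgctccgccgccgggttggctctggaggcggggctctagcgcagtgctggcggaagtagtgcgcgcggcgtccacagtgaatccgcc
Stx1a promoter, chr5:135023232-135023531, plus strand: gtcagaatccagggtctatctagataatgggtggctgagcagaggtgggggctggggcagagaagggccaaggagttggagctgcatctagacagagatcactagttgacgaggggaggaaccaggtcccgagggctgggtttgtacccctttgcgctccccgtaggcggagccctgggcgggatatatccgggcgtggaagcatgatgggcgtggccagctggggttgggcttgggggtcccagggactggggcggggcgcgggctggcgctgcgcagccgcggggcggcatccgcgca
Syn1 promoter, chrX:20920869-20921168, minus strand: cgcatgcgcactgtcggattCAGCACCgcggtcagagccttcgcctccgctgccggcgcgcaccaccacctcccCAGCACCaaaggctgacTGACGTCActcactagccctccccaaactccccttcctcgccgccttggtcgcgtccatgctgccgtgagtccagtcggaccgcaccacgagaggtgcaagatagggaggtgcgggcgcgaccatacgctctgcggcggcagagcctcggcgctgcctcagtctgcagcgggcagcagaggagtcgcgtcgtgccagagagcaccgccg
The motifs searched on both strands were the cAMP response element TGACGTCA and the left and right parts of the RE1 element of the repressor REST, CAGCACC and GGACAGC. All symbols matched by the name rule were searched, with or without a probe. Of 60 such genes with a promoter window, Syn1 and Stxbp3 held TGACGTCA, against 2.03% of all 27025 genes. CAGCACC was present in 8 of them (13.3%, against 8.14% of all genes) and GGACAGC in 3 (5%, against 7.59%). Unc13a, which had no probe, is counted in both. The Syn1 window holds CAGCACC at positions 21 and 75 and TGACGTCA at position 92, counted from the 5′ end of the printed sequence. The Snap29 and Stx1a windows hold none of the motifs.

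Changes over the first 10 days were estimated with limited precision, with a median SE of 0.59 over the 71 genes from P0 to P10. Development was estimated as the mean of the changes in the 2 genotypes, and genes were called at an adjusted p below 0.05 by limma's moderated test over all features. From P0 to P10 none of the 71 genes passed (0.045% of all features were called), by limma or by the same model without moderation (0.117% of all features). At an unadjusted p below 0.05, 5 were higher and 3 lower by limma, against 4.37% and 3.69% of all features, and 11 passed in either direction without moderation (15.5%, against 8.7% of all features). The median change was 0.12, against 0.02 over all features, and 42 of 71 genes (59.2%) lay above 0, against 51.1% of all features. The sign of this change was the same whichever single array was left out for 40 of the 71 genes.

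**Figure D1:**
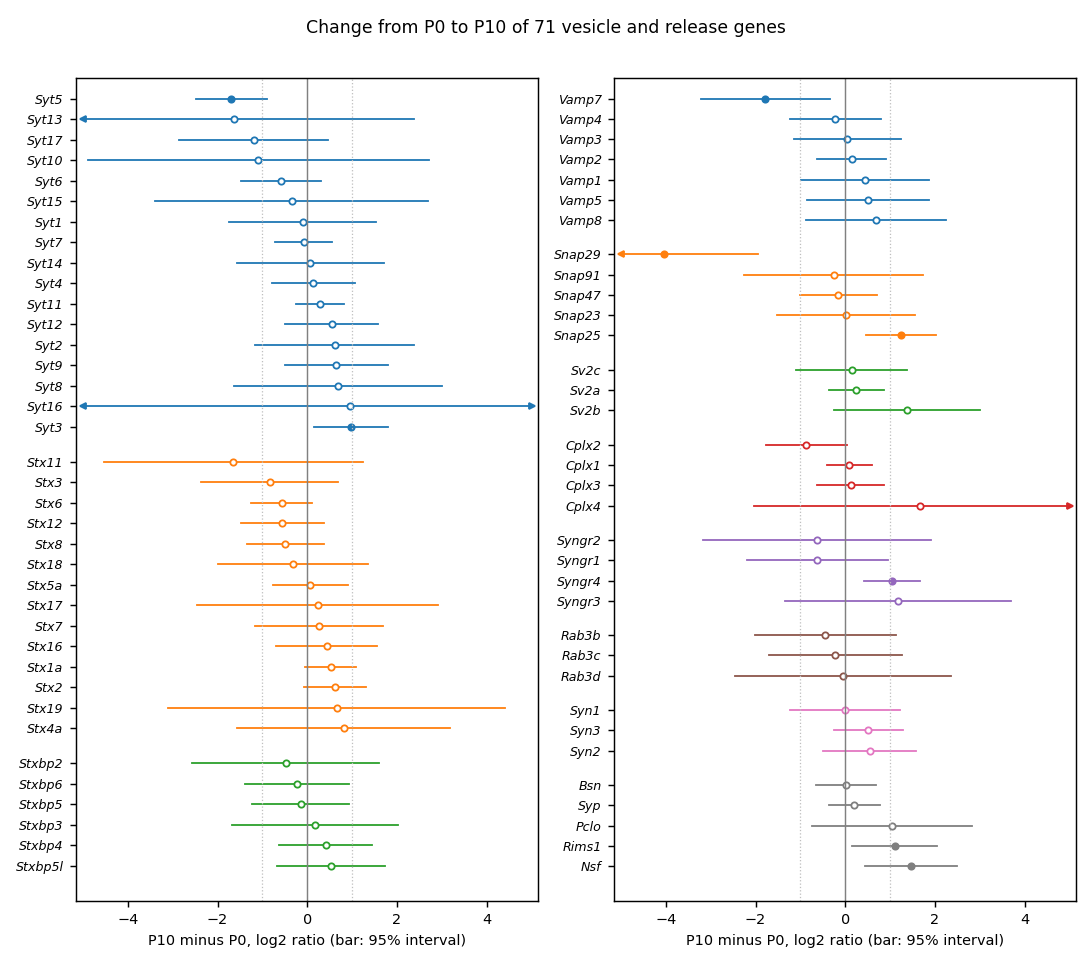
Fitted change from P0 to P10 (log2, P10 minus P0, mean over genotypes) of the 71 genes, ordered by size, with 95% confidence intervals as bars and an arrowhead where an interval runs past the axis. Filled points have an unadjusted p below 0.05, dotted lines mark a 2-fold change, and the points run between -4.03 for Snap29 and 1.65 for Cplx4.

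The intervals limit the size of the P0 to P10 change for some genes. For 9 genes the 95% interval of the P0 to P10 change lay wholly inside 2-fold: the active zone scaffold Bsn, the complexins Cplx1 and Cplx3, the Golgi syntaxin Stx5a, the vesicle proteins Sv2a and Syp, Syt7, Syt11, and the vesicle SNARE Vamp2. The value of Syt7 is the mean of 2 probes with opposite signs from P3 to P7, so its interval does not limit the change of either probe. Syp (synaptophysin), an abundant protein of the vesicle membrane, gave 0.20 (SE 0.27). Its older minus younger values were 0.30, 0.33, -0.03 and -0.08 on the P0 to P3 arrays and 0.06, 0.02 and 0.04 on the 3 arrays with a value at P7 to P10. Sv2a, a vesicle glycoprotein, gave 0.24 (SE 0.30). For the remaining 62 genes the interval reached 2-fold or more, through a larger change, a wider interval or both.

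In the step from P3 to P7, Syt5 fell and was the only gene of the group that passed. That is 1.41% of the group, beside 1.26% of all features called in this step. Syt5 encodes a calcium-binding synaptotagmin of secretory vesicles. It was lower in the older mouse on all 4 arrays, at -0.92, -1.50, -1.07 and -1.76, and the fitted change was -1.31 (SE 0.22, a 2.48-fold decrease, adjusted p = 0.00514). The fitted change was -1.25 in Ts1Cje mice (adjusted p = 0.0921) and -1.37 in euploid mice (adjusted p = 0.0136), and the genotypes differed by 0.12 (SE 0.28). Array titles carry the prefix ATJ on 19 arrays and ASJ on 9. The change was -1.38 in the ATJ arrays alone (adjusted p = 0.147) and -1.18 in the ASJ arrays alone. The ASJ value rests on P3/P7 replicate 1, the only array of this step with that prefix. Syt5 passed with every array left out in turn, with a largest adjusted p of 0.043.

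The other steps of Syt5 were smaller. From P0 to P3 its arrays gave -0.51, 0.36, -0.78 and -0.24 (fitted change -0.29), and from P7 to P10 they gave -0.50, 0.09, -0.61 and 0.67 (fitted change -0.09). The value of 0.67 came from P10/P7 replicate 2. The whole change from P0 to P10 was -1.69 (SE 0.38, adjusted p = 0.152), and without that array it was -2.01 with an adjusted p of 0.0346.

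Snap29 fell from P0 to P3 and was the only gene of the group to pass in that step (0.036% of all features were called). At an unadjusted p below 0.05 there were 4 higher genes (Cplx1, Nsf, Sv2b and Syt11, 5.63%, against 3.77% of all features) and 1 lower (1.41%, against 3.48%). Snap29 encodes a SNARE of intracellular membranes, found in most cells and known for the fusion of autophagosomes with lysosomes. Its values were -4.27, -2.07 and -4.13 on the 3 arrays with a measurement, and the fitted change was -3.42 (SE 0.48, a 10.7-fold decrease, adjusted p = 0.026). All 3 values were far below 0. The gene had a value on 19 of 28 arrays in all, the fewest of the group, and the call was lost without P0/P3 replicate 1 (adjusted p = 0.0509), without P0/P3 replicate 2 (0.0814) and without P7/P7 replicate 4 (0.0508), with the change between -4.58 and -3.10 whichever array was left out. Its later steps were 0.05 and -0.66. Snap29 lies on chromosome 16 at chr16:17406000-17430826 (GRCm38.p6), outside the segment present in 3 copies.

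The plasma membrane SNAREs of fast release had positive values on each array of both later steps and did not pass limma's test. Snap25 had older minus younger values of -0.20, -0.09, -0.01 and 0.45 from P0 to P3, of 0.56, 0.54, 0.67 and 0.30 from P3 to P7, and of 0.62, 0.57 and 0.72 from P7 to P10. The first step straddled 0 and the later 7 values were all positive. Fitted changes were 0.04, 0.51 (adjusted p = 0.261) and 0.68 (adjusted p = 0.35), and the change from P0 to P10 was 1.24 (SE 0.38, 2.36-fold, adjusted p = 0.431).
Stx1a, the syntaxin partner of Snap25, had 0.71, 0.37, 0.45 and 0.44 from P3 to P7 (fitted 0.49, SE 0.15, 1.41-fold, limma adjusted p = 0.113) and 0.03, 0.31 and 0.09 from P7 to P10. The P3 to P7 change of Stx1a passed in the model without moderation (adjusted p = 0.00884) and with array weights in limma (adjusted p = 0.0245). Its P0 to P3 values lay on both sides of 0, between -0.37 and 0.12. Vamp2, the vesicle SNARE of the same complex, had values between 0.00 and 0.02 from P3 to P7, and had 0.24 and 0.21 on the 2 arrays with a value from P7 to P10.

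**Figure D2:**
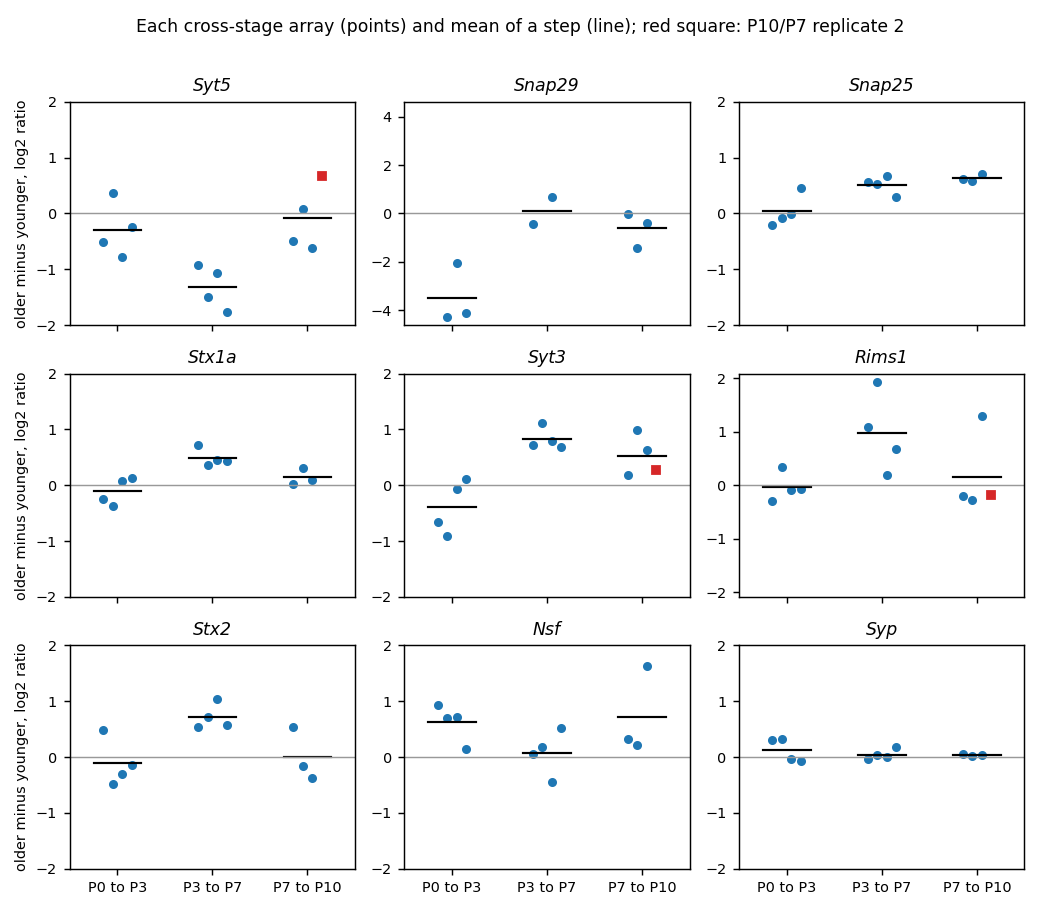
Older minus younger log2 ratios on each cross-stage array for Syt5, Snap29, Snap25, Stx1a, Syt3, Rims1, Stx2, Nsf and Syp, in the steps P0 to P3, P3 to P7 and P7 to P10. Each point is 1 array, the red square is P10/P7 replicate 2, and the 4 Syt5 points of the middle step lie between -1.76 and -0.92 while those of Syp lie near 0.

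Further genes had their larger differences in the same step from P3 to P7. At an unadjusted p below 0.05 there were 6 higher genes (8.45%, against 7.07% of all features) and 6 lower genes (8.45%, against 5.84%). The model without moderation called 5 of the group at an adjusted p below 0.05 (7.04%, against 2.81% of all features). Stx2, a syntaxin of the plasma membrane that also acts outside neurons, had 0.54, 0.72, 1.04 and 0.57 (fitted 0.72, SE 0.18, 1.64-fold, adjusted p = 0.0511). It stood at the threshold, and it passed when any of 6 single arrays was left out: P3/P0 replicate 1, P3/P3 replicate 2, P7/P10 replicate 1, P10/P7 replicates 1 and 2, and P10/P10 replicate 4 (adjusted p between 0.0369 and 0.0484). Syt3, a synaptotagmin with high calcium affinity, had 0.73, 1.12, 0.79 and 0.68 (fitted 0.83, adjusted p = 0.0767), followed by 0.19, 0.999, 0.63 and 0.28 from P7 to P10 (fitted 0.52). The P3 to P7 change of Syt3 passed without P3/P3 replicate 2 (adjusted p = 0.0427) and without P10/P10 replicate 4 (0.043).
Rims1, the active zone protein that binds Rab3, had 1.09, 1.93, 0.19 and 0.68 (fitted 0.97, SE 0.27, adjusted p = 0.0751), and passed without P10/P7 replicate 1 (0.0453). Its 2 probes gave 1.54 (SE 0.44) and 0.40 (SE 0.28) in this step. Syt12 had 0.89, 0.39 and 0.80 on 3 arrays (fitted 0.70, adjusted p = 0.313).

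The 6 lower genes were Syt5, Vamp7, Vamp4, Stx6, Stx11 and Cplx2. Vamp7, the SNARE of late endosomes and lysosomes, had -2.57, -0.95, -0.15 and -0.92 (fitted -1.15, SE 0.36, adjusted p = 0.127), and -0.72, -0.91 and -0.48 from P7 to P10. All 7 values were negative but spread widely, and the fitted change in the earlier of these steps was -0.63 without P3/P7 replicate 1. Vamp4, a SNARE of the trans-Golgi network, had -0.15, -1.22, -0.94 and -1.04 (fitted -0.84, adjusted p = 0.16), against values between -0.22 and 1.19 from P0 to P3. Stx6, also of the trans-Golgi network, gave -0.40 (adjusted p = 0.377), and -0.21 without P3/P7 replicate 2. Stx11, a syntaxin best known from the granules of cytotoxic lymphocytes, had -2.77, 0.52, -1.74 and -2.18 (fitted -1.54, adjusted p = 0.272), with 1 array against the other 3.
Cplx2, which clamps and promotes SNARE fusion, had -0.92, -0.52, -0.33 and -0.63 (fitted -0.60, adjusted p = 0.248). Cplx1, its close relative, was lower on each array of both later steps, but by little, with values between -0.22 and -0.03 from P3 to P7 and between -0.15 and -0.06 from P7 to P10.

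Markers of several cell types changed in the P3 to P7 step too. The granule neuron gene Neurod1 (0.97), the astrocyte genes Gfap (1.73) and Aqp4 (1.64) and the myelin gene Mbp (2.5) rose, and Ccnd1 (-2.45), Foxp2 (-1.89), Olig1 (-0.90), Pecam1 (-1.13) and Pcna (-0.78) fell, all at an adjusted p below 0.05. By list, 11 of 14 granule neuron markers lay above 0 (median 0.28), as did 9 of 12 markers of astrocytes and Bergmann glia (median 0.29), 8 of 12 of oligodendrocytes (median 0.45), 5 of 13 of Purkinje cells (median -0.20) and 6 of 15 of cell division (median -0.01). Ccnd1 is from the list of granule cell precursor markers, of which 7 of 12 lay above 0 (median 0.11). Pecam1 is from the endothelial list, of which 2 of 7 lay above 0 (median -0.33). Their part in the changes of the release genes was not tested.

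Syt7, which supports slow and asynchronous release, had 2 probes with opposite signs from P3 to P7. One had -0.65, -0.33, -0.60 and -0.99 on the 4 arrays (fitted -0.64, SE 0.23, adjusted p = 0.196 over 24051 probes) and the other 0.72, 0.80, 0.44 and 0.95 (fitted 0.73, SE 0.19, adjusted p = 0.0509). The probes did not overlap on any array, and their mean gave 0.04. The difference between the probes was not tested, and neither passed alone. For 64 of the 71 genes there was 1 probe.

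No gene of the group passed from P7 to P10 by limma or without moderation (0.0045% of all features were called, and the smallest adjusted p was 0.153). At an unadjusted p below 0.05, 7 genes did by either model (9.86%, against 9.2% of all features without moderation), which limma split into 6 higher (8.45%, against 5.18% of all features) and 1 lower (1.41%, against 3.91%). Of 63 genes with at least 3 values in this step, 12 were higher in the older mouse on every array (19%, against 10.9% of all features), among them Nsf, Rab3c, Snap25, Snap91, Sv2b, Syp and Syt4, and 4 were lower on every array (6.35%, against 10.7%).
Of 60 genes with at least 3 values in each of the later steps, Snap25, Stx1a, Syngr4 and Syt3 were higher on every array of both (6.67%, against 2.61% of 18372 features), and Cplx1, Snap47 and Vamp7 lower (5%, against 2.26%). Snap25, Stx1a, Cplx1 and Snap47 had no value on P10/P7 replicate 2. Nor had Nsf, Snap91, Stx16, Sv2b, Syp and Syt4 of the 12 genes higher from P7 to P10. In the P3 to P7 step alone, 10 of 68 genes were higher on every array (14.7%, against 14.2% of all features) and 13 were lower (19.1%, against 14.8%), and from P0 to P3 these were 9 (13.2%, against 7.95%) and 7 (10.3%, against 7.62%).

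Single arrays decided several of the larger values. Nsf, the ATPase that disassembles SNARE complexes, had 0.33, 0.21 and 1.64 from P7 to P10 (fitted 0.76, adjusted p = 0.45), and 0.16 without P10/P7 replicate 1. From P0 to P3 it had 0.93, 0.70, 0.72 and 0.14 (fitted 0.62, adjusted p = 0.624), all positive, and over P0 to P10 it gave 1.46 (SE 0.49, adjusted p = 0.474), and 0.86 without P10/P7 replicate 1. Syngr4, a synaptogyrin, had 0.43, 0.34, 0.64 and 1.59 from P7 to P10 (fitted 0.75, adjusted p = 0.153), and 0.46 without P10/P7 replicate 2. It passed without P7/P10 replicate 1, at 0.84 (adjusted p = 0.0458).
Syt2, the fast calcium sensor of hindbrain synapses, had 0.83, -0.68, 0.34 and 4.06 (fitted 1.14), and 0.10 without P10/P7 replicate 2. Vamp5, best known from muscle, had 0.18, 0.09, -0.33 and 3.58 (fitted 0.88), and -0.08 without the same array. Cplx4, a complexin of retinal ribbon synapses, had 6.74 on that array, against -0.75 and -0.32 on the other 2 with a value. Its fitted change from P0 to P10 was 1.65, and -0.44 without that array. Sv2b, a relative of Sv2a, had -0.10, 0.11, 4.19 and 0.21 from P0 to P3 (fitted 1.10), and 0.05 without P3/P0 replicate 2, on which the 4.19 was measured. Syngr1, a major synaptogyrin of neurons, had 0.13, -0.44, -2.52 and -1.22 from P7 to P10 (fitted -1.01, adjusted p = 0.439), and -0.61 without P10/P7 replicate 1.

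By family, genes of the larger ones lay on both sides of 0. From P0 to P10, 9 of 17 synaptotagmins lay above 0 (median 0.07, between -1.69 for Syt5 and 0.97 for Syt3), as did 8 of 14 syntaxins (median 0.15, between -1.65 for Stx11 and 0.81 for Stx4a) and 5 of 7 Vamp genes (median 0.14, between -1.78 for Vamp7 and 0.69 for Vamp8). Of the Stxbp genes, which hold Munc18 proteins and the inhibitory tomosyns, 3 of 6 lay above 0 (median 0.01). The 3 Rab3 GTPases measured lay between -0.45 for Rab3b and -0.06 for Rab3d, and the 3 Sv2 genes between 0.14 for Sv2c and 1.37 for Sv2b. Without P3/P0 replicate 2 the value of Sv2b was 0.32, and without P10/P7 replicate 2 that of Sv2c was 0.92. The single genes Bsn, Nsf, Pclo, Rims1 and Syp all lay above 0, between 0.02 for Bsn and 1.46 for Nsf.
The synapsins Syn1, Syn2 and Syn3, which tether vesicles to one another, gave -0.01, 0.54 and 0.51. Syt1, the main calcium sensor of forebrain release, had values on both sides of 0 from P0 to P3, split by dye. They were 1.73 and 1.57 with the older mouse on Cy3, and -0.89 and -1.05 with it on Cy5. The dye term of Syt1, described below, was -0.54 (limma adjusted p = 0.014), and its change from P0 to P10 was -0.10 (SE 0.79). Pclo, the partner of Bsn at the active zone, had 0.21 and 2.52 on its 2 arrays from P7 to P10, and Snap91, a clathrin assembly protein of vesicle recycling, gave -0.26 (SE 0.96) from P0 to P10. Syt4, Vamp1 and Rab3c gave 0.13, 0.44 and -0.22 over the same interval.

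For some genes the sign of the ratio followed the dye. A dye term, fitted in addition, passed for 1781 of 22225 features, so it was not confined to this group. It passed for 9 of the 71 genes (Stx12, Stx19, Syngr2, Syt1, Syt9, Syt10, Syt13, Syt16 and Vamp8), and 8 of the 9 were lower on Cy5. For Syt10, the older mouse was lower on all 6 cross-stage arrays where it was labelled with Cy5, between -2.87 and -1.17, and higher on all 5 where it was labelled with Cy3, between 0.98 and 2.70. Syt13, Syt16, Stx19 and Syngr2 likewise did not overlap between the dye orientations. Each step held 2 arrays of each orientation, and a mean over a step averaged values of opposite sign for these 5 genes. Arrays without a value left some steps unbalanced, as for Syt16 and Stx19 from P0 to P3, with 2 arrays of the Cy3 orientation and 1 of the Cy5 orientation. For Syt5 the values overlapped between orientations, the dye term was -0.14 (adjusted p = 0.283), and the change from P3 to P7 with the term in the model was -1.31 (adjusted p = 0.00256).

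**Figure D3:**
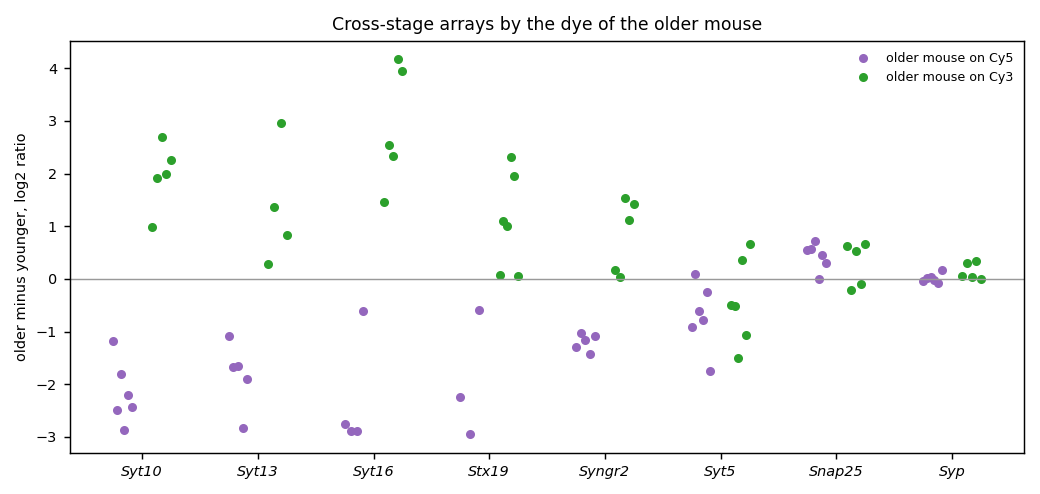
Older minus younger log2 ratios on cross-stage arrays, split by the dye that labelled the older mouse (Cy5 or Cy3), for Syt10, Syt13, Syt16, Stx19, Syngr2, Syt5, Snap25 and Syp. Each point is 1 array. For Syt10 the Cy5 points lie between -2.87 and -1.17 and the Cy3 points between 0.98 and 2.70, while those of Syt5 and Snap25 overlap.

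In Ts1Cje mice the release machinery did not differ from euploid mice in any gene that passed the test. None of the genes lies in the segment present in 3 copies, and 3 of them, Snap29, Stx19 and Stxbp5l, are elsewhere on chromosome 16. Averaged over the stages, none passed at an adjusted p below 0.05 (0.018% of all features were called), nor at an unadjusted p below 0.05, by limma or without moderation (4.08% and 4.04% of all features). The smallest adjusted p was 0.993. The median difference was -0.0053, against -0.0023 over all features, and 34 of 71 genes (47.9%) lay above 0, against 49.4% of all features. Precision was higher here than for development: the 95% interval lay inside 1.5-fold for 54 of the 71 genes and inside 2-fold for 68.

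**Figure D4:**
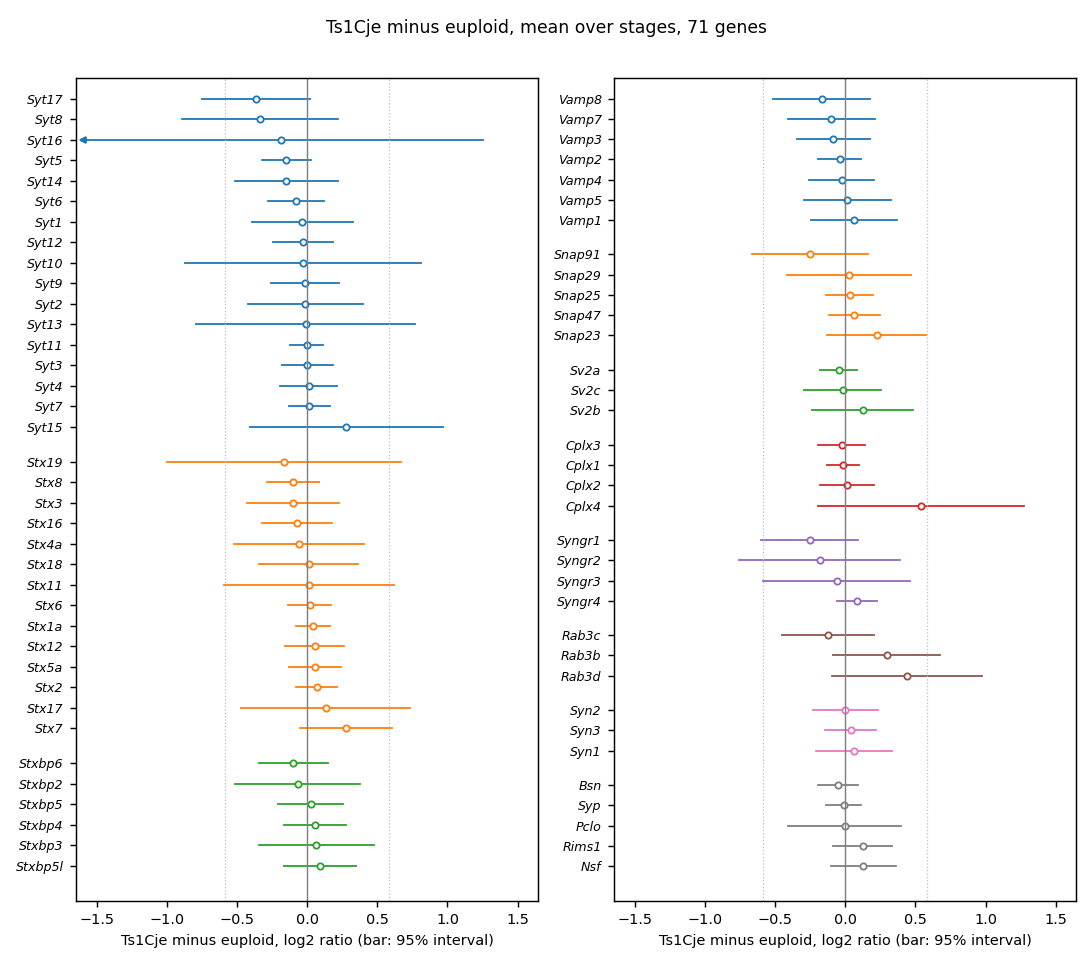
Fitted Ts1Cje minus euploid difference (log2, mean over the 4 stages) of the 71 genes, ordered by size, with 95% confidence intervals as bars. Dotted lines mark 1.5-fold, and the points run between -0.37 for Syt17 and 0.54 for Cplx4.

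For 4 genes of the fusion complex and the vesicle membrane the interval held 0 and lay inside 1.5-fold. The Ts1Cje minus euploid difference was 0.03 for Snap25 (95% interval -0.14 to 0.20) and 0.04 for Stx1a (-0.08 to 0.17). It was -0.04 for Vamp2 (-0.19 to 0.11) and -0.01 for Syp (-0.14 to 0.11). On the 16 same-stage arrays, Snap25 ran from -0.53 to 1.45 (median 0.08) and was higher in the Ts1Cje mouse on 10. Snap91 and Syngr1 were measured less closely, at -0.25 each (SE 0.20 and 0.17), with intervals that reached past 1.5-fold. Syt5, which fell with age, was 0.901-fold, with values between -0.70 and 0.51 (median -0.21).
The lowest fitted difference was that of Syt17, at -0.37 (SE 0.19, 0.775-fold), and it was -0.23 without P7/P3 replicate 2, on which its older minus younger value was -4.35. Its same-stage values were 0.54, -0.23, -0.53 and -0.33 at P0, -0.65, -0.07 and 0.31 at P3, 0.16, -0.26, 0.10 and -0.01 at P7 and -0.35, -0.25 and -0.53 at P10. Only at P10 were all of them below 0. Rab3d and Rab3b, GTPases of secretory vesicles, gave 0.44 (SE 0.26) and 0.29 (SE 0.18), and Stx7, an endosomal syntaxin, 0.27 (SE 0.16). The difference of Rab3d was 0.29 without P3/P3 replicate 3, that of Rab3b -0.03 without P10/P10 replicate 3 and that of Stx7 0.17 without P0/P0 replicate 4. Cplx4, the highest at 0.54, gave 0.33 without P10/P7 replicate 2.

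Within single stages none of the genes passed either, in limma or without moderation (0% of all features were called at P0, P7 and P10, and 0.0045% at P3). At an unadjusted p below 0.05 there were 2 genes at P0 by limma (Stx7 and Stxbp5l, against 4.43% of all features), 1 at P3 (Stxbp5l, 5.61%), none at P7 (1.73%) and 1 at P10 (Cplx4, 5.21%), and 3, 2, 0 and 2 without moderation, against 4.27%, 5.7%, 1.71% and 5.17% of all features. The test for differences between stages called none (0% of all features), and Stxbp5l alone at an unadjusted p below 0.05 (3.08%).
Stxbp5l encodes a tomosyn, an inhibitor of SNARE assembly. Its Ts1Cje minus euploid values were 0.24, 0.57, 1.87 and 0.65 at P0, -0.46, -2.55, -0.33 and 0.25 at P3, 0.12, 0.68, -0.46 and -0.26 at P7 and -0.06, 0.50, -0.23 and 0.16 at P10. All 4 arrays were positive at P0 and 3 of 4 negative at P3, with fitted differences of 0.77 (SE 0.29) and -0.66 (SE 0.27) and an adjusted p of 0.9999 for a difference among stages. They were 0.48 without P0/P0 replicate 3 and -0.25 without P3/P3 replicate 2. Cplx4 had 0.29, 0.78, 1.59 and 2.75 at P10 (fitted 1.67, SE 0.76, adjusted p = 0.942) and between -2.71 and 0.01 at P0. The fitted difference at P10 was 1.37 without P10/P10 replicate 4 and 1.26 without P10/P7 replicate 2.

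No gene of the group passed for a difference between genotypes in a step of development by limma, with a smallest adjusted p of 0.985, for Stxbp5l from P0 to P3 (-1.43). Other presynaptic genes outside the name rule were counted beside these. Of 61 listed for vesicle filling, priming, recycling and the active zone, 58 were tested, and none passed at an adjusted p below 0.05 in any step or for genotype by limma. From P3 to P7, 5 were higher and 4 lower at an unadjusted p below 0.05, against 7.07% and 5.84% of all features. The median of these genes was -0.05. From P0 to P10 the counts were 2 and 1, against 4.37% and 3.69% of all features, with a median of 0.19. Synj1 and Itsn1, recycling genes that are present in 3 copies in Ts1Cje mice, had Ts1Cje over euploid ratios of 1.19 (95% interval 1.04 to 1.35, adjusted p = 0.993) and 1.25 (1.11 to 1.40, adjusted p = 0.838).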

How the data were processed

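The deposited table gives, for each array, the log2 of the Cy5 to Cy3 ratio. The authors had applied a LOWESS normalisation within each array, without the spots under 1.2 times the local background. No levels or raw intensities were used here. Of 25344 probes, 20626 were matched to 1 gene symbol. After 257 control spots were left out, the matched probes were averaged per gene. Columns of other samples numbered 0.

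Following the study's ANOVA, 7 parameters (euploid development to P3, P7 and P10, and Ts1Cje minus euploid at each stage) were fitted to all 28 arrays in R 4.3.3, for genes with at least 14 arrays and 5 residual degrees of freedom. Missing ratios were dropped, not imputed. Variances were moderated with limma 3.58.1 and p-values adjusted by Benjamini-Hochberg over 22225 features. The number of arrays limits the precision: the median SE over all features was 0.41 for the steps P0 to P3 and P3 to P7, 0.45 for P7 to P10 and 0.17 for genotype.

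Replicates were different mice, numbered here in accession order. The labels used here do not tie arrays to litters, so litter was not analysed here and p-values measure the spread between these samples. Rab3 genes were taken as Rab3 plus a letter. The members and lists were chosen with earlier results of these data known. Genes named were 21 measured core release genes, those passing a test, those with the smallest p for genotype or stage differences and the extremes of each family. Others, such as Stx2, Stx6, Stxbp3, Syngr4, Syt7, Syt11, Syt12, Vamp5 and the dye-dependent genes, were chosen after their values were seen. Alternatives changed the moderation, filter, scaling, dye term, probe rule, weights or arrays used.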

Additional observations from a re-analysis of the deposited data

Results flagged for a closer look

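Single arrays were set against the other 3 of their group of 4, and an array was picked out when its gap to the nearest value took most of the group's range. This was the case in 22 of 227 groups over 45 genes (9.69%). The cut-off flags about 1 in 20 groups when all 4 values are normal with equal spread. Arrays differed in spread, and some of these genes were picked from the same values, so these rates cannot be compared. P10/P7 replicate 2 and P10/P10 replicate 4, the arrays with the fewest values, gave 3 each.

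On the cross-stage arrays (older minus younger), Stx7 was -0.81 on P3/P0 replicate 1. On P3/P0 replicate 2 Sv2b was 4.19 and Vamp5 -1.10. On P7/P3 replicate 1 Syn2 was -0.66 and Syngr4 0.081. Rims1 was 1.30 on P10/P7 replicate 1. On P10/P7 replicate 2 Syngr3 was -2.72, Syt17 -1.25 and Vamp5 3.58.

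On the same-stage arrays (Ts1Cje minus euploid), the P0 arrays that stood apart gave 0.72 for Cplx2 and 0.34 for Stx1a on replicate 1, 0.51 for Stx4a on replicate 2 and 0.51 for Syt5 on replicate 3. At P3 they gave 0.36 for Vamp7 on replicate 1 and -0.70 for Syt5 on replicate 3. At P7 they gave -1.09 for Snap29 and -0.96 for Sv2b on replicate 2 and -0.51 for Snap25 on replicate 3. At P10 they gave 0.32 for Stx1a on replicate 3, and on replicate 4 -1.50 for Cplx2, -4.39 for Stxbp2 and -0.90 for Vamp2.

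For 2 genes the arrays of 1 stage lay all on the opposite side of 0 from those of another. Stxbp2, a Munc18 protein, was below 0 on all 4 arrays at P10 and above 0 on all 4 at P0, with group means differing by -1.50 (P10 minus P0). The P10 values were -0.02, -0.28, -0.03 and -4.39, and without the last of these, from P10/P10 replicate 4, the difference was -0.43. Syngr4 was above 0 on all 4 arrays at P10 and below 0 on all 4 at P7, with group means differing by 0.44. The difference between these pairs of stages was not tested by itself, and the test over all stages gave no adjusted p below 0.05 for either gene.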

How the results depend on the processing

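No paired analysis was possible because the replicate numbers are only accession order and mark no shared animal or batch, and litters, which the labels used here do not tie to arrays, were not analysed here. The group's median change from P0 to P10 stayed above 0 under every alternative run (0.06 to 0.22, and 0.05 to 0.14 with single arrays left out). No gene passed for genotype under any alternative. Without the 3 arrays with the fewest values, 1 gene passed from P0 to P10 (Syt5). From P0 to P3 the count was 0 with at least 24 arrays required (which leaves Snap29 untested), with arrays scaled to 1 spread, with array weights, in euploid or Ts1Cje mice alone, without the P7/P7 array with conflicting labels, and in the ATJ or ASJ arrays (title prefixes) alone. From P3 to P7 it was 2 with a dye term or centred arrays, 3 with at least 24 arrays or the probe with most arrays, 4 without the 3 arrays, 5 without moderation, 6 with array weights, and 0 in Ts1Cje mice, ATJ or ASJ arrays alone, where Syt5 gave -1.25, -1.38 and -1.18. The ATJ and ASJ subsets hold fewer arrays, and P3/P7 replicate 1 is the only ASJ array of this step. The cause of the other shifts was not tested. With single arrays left out, counts ran from 0 to 1 (P0 to P10, P0 to P3 and P7 to P10) and from 1 to 3 (P3 to P7), and stayed 0 for genotype. Vamp5 from P7 to P10 reversed to -0.086 with the probe with most arrays and to -0.067 without the 3 arrays (range -0.081 to 1.38 with single arrays left out). In ASJ arrays alone Syngr1 from P7 to P10 reversed to 0.37, and for genotype Stx7 to -0.0098 and Rab3b to -0.27. Rab3b for genotype ranged from -0.029 to 0.62 with single arrays left out.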
